A study of Mus musculus with 2 samples.

Results

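Mir199a-1, Mir199a-2, Mir199b and Mir214 are microRNA (miRNA) genes of mesenchymal cells that lie inside the dynamin genes, on the strand opposite to them. They were chosen by symbol, through the GENCODE M21 name of each gene ID, and all 4 were found among the 2202 miRNA genes of the tables. MicroRNA-seq, which reads short RNA, had been run on the hearts of 2 female mice aged 10 days. Both were B6CASTF1/J, the F1 hybrid of the strains C57BL/6J and CAST/EiJ, and each heart was its own biosample with its own library. The labels number the biosamples as separate females but list both under the same donor entry, so n = 2 rests on that numbering. The labels give 1 group, no treatment and no second tissue, so every value describes this group or the difference between its 2 hearts, called replicates 1 and 2.

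A miRNA gene makes a hairpin RNA that is cut into a 5p and a 3p arm of about the length of the reads. Bases 2 to 8 of an arm, the seed, pair with target messenger RNAs. Mir199a-2 and Mir214 are carried by Dnm3os, a long non-coding RNA of mesenchymal tissue that Twist1 is known to activate and whose loss in mice disturbs skeletal growth. In the heart, miR-199a-3p is known for raising the proliferation of cardiomyocytes when it is supplied to them, miR-199a-5p for repressing Hif1a, Mir199b for acting in the calcineurin pathway of hypertrophy and Mir214 for limiting calcium overload after ischaemia.

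The arm sequences are shown because they decide which of the 4 genes a read can be assigned to. They come from RefSeq on GRCm38.p6, where all 4 genes were matched, and run 5′ to 3′ with the seed in capitals.
miR-199a-5p, from Mir199a-1 and Mir199a-2: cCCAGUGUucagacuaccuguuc
miR-199a-3p, from Mir199a-1 and Mir199a-2: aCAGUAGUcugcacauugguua
miR-199b-3p, from Mir199b: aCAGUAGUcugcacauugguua
miR-214-5p, from Mir214: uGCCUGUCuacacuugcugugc
miR-214-3p, from Mir214: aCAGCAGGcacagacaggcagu
The 3p arm of the Mir199 genes is the same 22 bases at all 3 hairpins, and miR-199a-5p is the same 23 bases at 2 of them. Both arms of Mir214 were found at 1 hairpin each. Over all 1674 distinct mature sequences in the RefSeq table, 59 (3.52%) occurred at more than 1 hairpin and 7 (0.418%) at 3 or more. Allowing 1 mismatch, the numbers were 111 (6.63%) and 31 (1.85%), and the Mir214 arms still had 1 hairpin each.

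The hairpins show where the Mir199 genes can be told apart. Capitals mark the arms listed above.
Mir199a-1: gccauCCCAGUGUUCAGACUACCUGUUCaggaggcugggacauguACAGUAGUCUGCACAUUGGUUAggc
Mir199a-2: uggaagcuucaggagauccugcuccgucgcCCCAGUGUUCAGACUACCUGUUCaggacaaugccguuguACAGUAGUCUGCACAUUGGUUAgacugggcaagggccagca
Mir199b: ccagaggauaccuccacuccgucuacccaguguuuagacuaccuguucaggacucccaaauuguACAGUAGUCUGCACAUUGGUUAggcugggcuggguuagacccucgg
Mir214: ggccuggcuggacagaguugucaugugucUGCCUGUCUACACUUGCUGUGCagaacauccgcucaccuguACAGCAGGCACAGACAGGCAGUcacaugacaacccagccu
Around the 5p arm, Mir199a-1 and Mir199a-2 share 4 bases after it and none before it, a run of 27 bases. A read that starts 1 base earlier than the listed arm therefore differs between them. Around the 3p arm, Mir199a-2 and Mir199b share 27 bases, Mir199a-1 and Mir199a-2 share 26, and Mir199a-1 and Mir199b share 28, the last run reaching the end of the Mir199a-1 hairpin. Such runs span nearly the whole read length of this assay, whose RNA inserts were under 30 bases per the labels. Bases 26 to 48 of the Mir199b hairpin, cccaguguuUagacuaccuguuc, differ from miR-199a-5p by the single change C10U, counted from the 5′ end of the arm. That base is outside the seed, so the seed letters CCAGUGU are the same in all 3 genes. The longest run that Mir214 shares with any of the other hairpins is 7 bases.

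The Mir199 genes and Mir214 fall into separate seed groups. CCAGUGU and CAGUAGU, the seeds of the Mir199 5p and 3p arms, and GCCUGUC, that of miR-214-5p, occurred in no other RefSeq mature sequence. CAGCAGG, the seed of miR-214-3p, was shared with miR-761 (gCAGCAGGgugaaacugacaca), and Mir761 had 0 counts in both hearts, below the 3 counts that a count of 0 allows.

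In mm10 coordinates, Mir199a-2 lies at chr1:162217814-162217923 and Mir214 at chr1:162223368-162223477, both on the plus strand. Their starts are 5554 bases apart. Both fall within an exon of full-length annotated transcripts of Dnm3os, a gene of 7928 bases, and within introns of Dnm3, which runs on the minus strand. Mir199b (chr2:32318460-32318569, plus strand) is intronic to Dnm1, and Mir199a-1 (chr9:21496495-21496564, minus strand) is intronic to Dnm2, in both cases on the opposite strand. No annotated miRNA gene overlaps any member on its other strand.

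**Figure D1:**
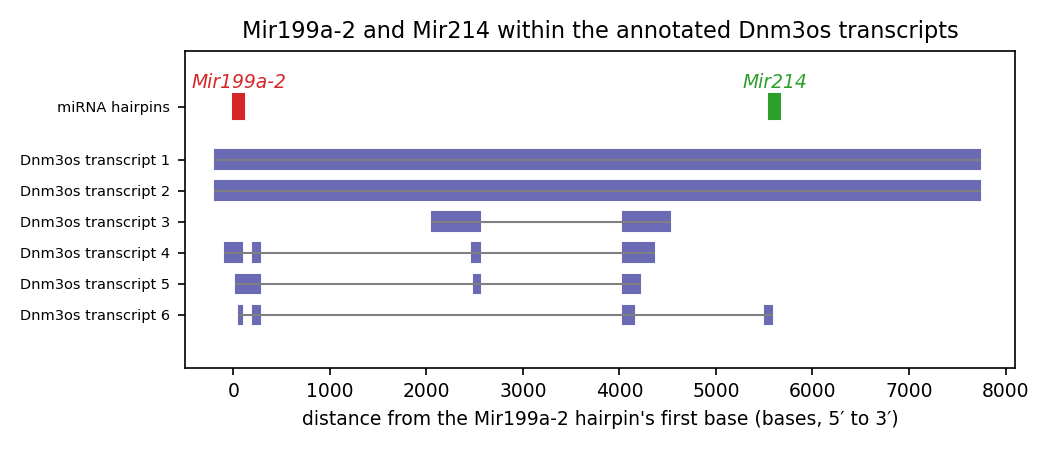
Map of Mir199a-2 and Mir214 (coloured boxes) above the 6 annotated Dnm3os transcripts (blue boxes are exons, grey lines introns), with the distance in bases from the first base of the Mir199a-2 hairpin on the x axis. The hairpins start 5554 bases apart, and the upper 2 transcripts cover both without an intron.

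Reads on named miRNA genes came to 4260561 for replicate 1 and 4583025 for replicate 2, out of 10782737 and 10201509 reads in all. Reads placed at more than 1 position (38.9% and 38.0% of all reads) are kept in a category of their own and assigned to no gene. How many of them carry a Mir199 arm was not measured. Levels are given as CPM, which scale the reads on named genes of each library to the same total, without scaling by length, since the arms are 22 or 23 bases. As a check of the tissue, all 7 cardiac muscle miRNA genes looked at had reads in both hearts, but at very unequal levels. The highest were Mir499 (4784 ± 931 CPM, SD, n = 2) and Mir208a (2162 ± 1125 CPM), which are carried by myosin genes. Mir208b had 1144 ± 143 CPM. The rest had far fewer reads placed at 1 position, and how many of their reads were placed at more than 1 was not measured. Mir1a-2 had 185 counts in replicate 1 and 245 in replicate 2. For Mir133a-1 the counts were 33 and 12, for Mir1a-1 11 and 12, and for Mir133a-2 6 and 4. The check thus rests on Mir499, Mir208a and Mir208b.

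Levels here leave out reads placed at more than 1 position, and every listed Mir199 arm was found at more than 1 hairpin. In the reads that remain, Mir214 was by far the highest of the 4 genes. It had 19659 counts in replicate 1 and 23596 in replicate 2, which is 4614 and 5149 CPM, or 4881 ± 378 CPM (SD, n = 2). That made 0.461% of the counts of replicate 1 (exact Clopper-Pearson 95% interval 0.455 to 0.468) and 0.515% of those of replicate 2 (0.508 to 0.521). These intervals cover counting error only. It ranked 34 in replicate 1, 28 in replicate 2 and 33 by its mean CPM, at a level that 98.5% of the 2202 genes did not exceed. The hearts thus gave it nearly the same place.

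Mir199b came next. It had 207 and 293 counts, or 48.6 and 63.9 CPM (56.3 ± 10.9, SD, n = 2), at rank 187. Mir199a-2, the Dnm3os partner of Mir214, had 121 counts in replicate 1 and 70 in replicate 2, or 28.4 and 15.3 CPM (21.8 ± 9.28, SD, n = 2), at rank 234. Mir199a-1 had 8 counts and 1 count, or 1.88 and 0.218 CPM (1.05 ± 1.17, SD, n = 2), at rank 447. Its exact 95% intervals were 0.811 to 3.70 CPM in replicate 1 and 0.00552 to 1.22 CPM in replicate 2. The order Mir214, Mir199b, Mir199a-2, Mir199a-1 held in both hearts, and no pair of neighbours in that order had overlapping ranges. It is an order of reads placed at 1 position and does not give the order of the RNA itself. With 10 or more counts in both hearts taken as detected, 3 of the 4 members were detected and Mir199a-1 was not, against 15.7% of all 2202 genes. The 4 genes together took 0.496% ± 0.0378 of the counts (SD, n = 2), and Mir214 made up 98.3% of their counts in replicate 1 and 98.5% in replicate 2.

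**Figure D2:**
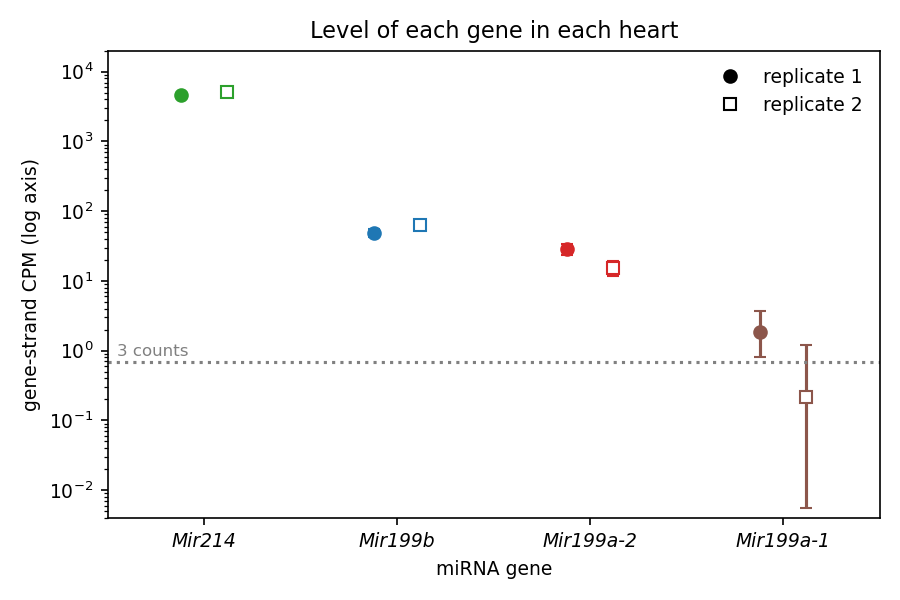
Gene-strand CPM on a log axis for each gene in replicate 1 (filled circles) and replicate 2 (open squares), with exact 95% intervals for counting error; the dotted line marks the level of 3 counts. Mir214 stands at 4614 and 5149 CPM, and Mir199a-1, at 1.88 and 0.218 CPM, on either side of the line.

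Nearly all of these reads lay on the gene strand. Mir214 had 2 opposite-strand reads in replicate 1 and 0 in replicate 2, and the Mir199 genes had 0 in both, which is within the 3 counts that a count of 0 allows. Without regard to strand, the counts were 19661 for Mir214 in replicate 1 and the same as above in every other case. Of the 346 detected genes, 34 had an opposite-strand read in either heart, and 298 had the same counts with and without strand. The strand of the Dnm genes thus held at most 2 reads per library over each hairpin.

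The genes nearest to Mir214 in level were Mir744 (5033 ± 272 CPM), Mirlet7f-2 (5068 ± 795) and Mir130a (5485 ± 522) above it and Mir499 (4784 ± 931), Mir195a (4475 ± 4315) and Mir149 (4385 ± 444) below it (SD, n = 2 each). All 6 had ranges over the hearts that overlapped that of Mir214, so its place among them is not fixed. Around Mir199b lay Mir467c, Mir664 and Mir505 above and Mir376c, Mir341 and Mir32 below, from 53.7 to 68.3 CPM, and of these only Mir505 (69.0 and 67.6 CPM) had a range apart from that of Mir199b. Around Mir199a-2 lay Mir193a, Mir138-2 and Mir212 above and Mir669e, Mir103-2 and mmu-mir-3535 below, from 21.1 to 23.7 CPM, all with overlapping ranges. Likeness here is nearness of mean CPM over 2 hearts and nothing more.

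**Figure D3:**
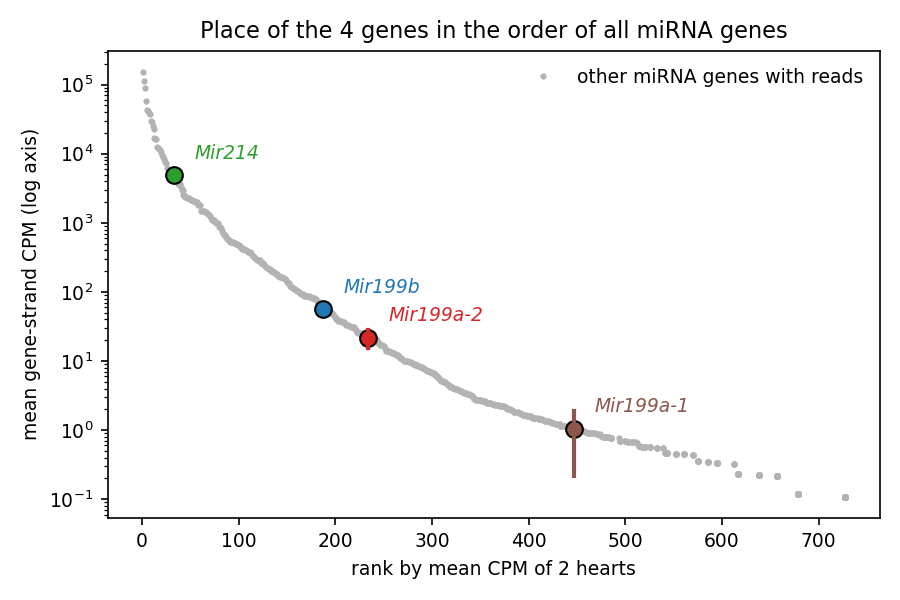
Mean gene-strand CPM of the 2 hearts (log axis) against rank for all miRNA genes with reads (grey), with the 4 genes in colour and lines from their lower to their higher heart. Mir214 sits at rank 33, Mir199b at 187, Mir199a-2 at 234 and Mir199a-1 at 447.

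The members did not move together between the hearts. Mir214 and Mir199b were higher in replicate 2 and Mir199a-2 was higher in replicate 1. The log2 ratio of replicate 2 over replicate 1, with library sizes scaled by TMM (trimmed mean of M values), was 0.22 for Mir214 (exact 95% interval 0.20 to 0.25), 0.46 for Mir199b (0.20 to 0.73) and -0.82 for Mir199a-2 (-1.27 to -0.39). In an exact two-sided binomial test of the 2 libraries, Benjamini-Hochberg adjusted over the 375 genes whose counts summed to at least 20, adjusted p was 8.45e-58 for Mir214, 0.000993 for Mir199b and 0.000304 for Mir199a-2. All 3 members tested therefore differed beyond counting error. So did 55.2% of the genes tested (26.1% with the higher value in replicate 2, 29.1% in replicate 1). Among the 266 genes whose counts summed to at least 100, as those of these 3 members did, the share was 71.4%. With 3 members, no more can be read from their count. This test compares 2 libraries and not conditions, and in whole hearts fewer cells of a type and less RNA per cell cannot be told apart. Mir199a-1, with 9 counts in all, was under the minimum for the test.

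Differences of these sizes were common among the genes. Mir214 moved less than most: 253 of the 375 genes (67.5%) had a log2 ratio at least as far from 0, and the median distance was 0.37. For Mir199b it was 155 genes (41.3%) and for Mir199a-2 62 genes (16.5%).

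**Figure D4:**
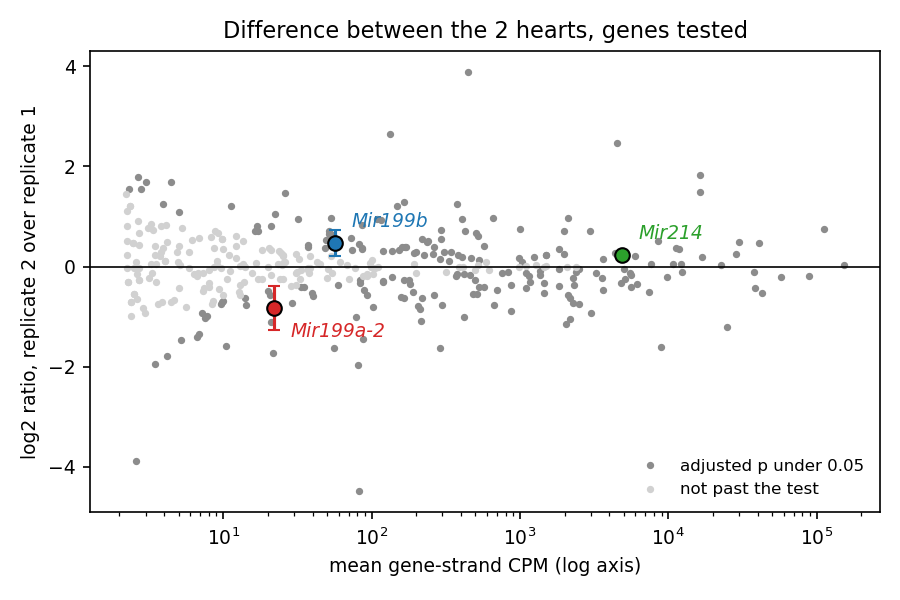
The log2 ratio of replicate 2 over replicate 1 against mean gene-strand CPM (log axis) for the 375 genes tested, dark grey where the exact binomial test passed, with the 3 members tested in colour and their exact 95% intervals. Mir214 and Mir199b lie above 0 and Mir199a-2 below it.

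In reads placed at 1 position, the Mir199 genes shifted against each other while their summed CPM stayed nearly level. Together they had 336 counts in replicate 1 and 364 in replicate 2, which is 78.9 and 79.4 CPM. Reads placed at more than 1 position are not in this sum. Of that sum, Mir199b made up 61.6% (exact Clopper-Pearson 95% interval 56.2 to 66.8) in replicate 1 but 80.5% (76.0 to 84.4) in replicate 2. Mir199a-2 made up 36.0% (30.9 to 41.4) and 19.2% (15.3 to 23.7), and Mir199a-1 2.38% (1.03 to 4.64) and 0.275% (0.00696 to 1.52). The intervals of the hearts did not overlap for Mir199b and Mir199a-2, and did for Mir199a-1. As parts of 1 sum, the shares of Mir199b and Mir199a-2 move against each other, so they show a single shift. Beside it, 55.2% of the 375 genes tested differed between the hearts in level by the exact binomial test. That is a test of levels and not of shares, so the 2 are unlike measures.

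Ratios within a heart do not depend on library size. For Mir199b over Mir199a-2 the log2 ratio came to 0.77 (exact 95% interval 0.44 to 1.11) in replicate 1 against 2.06 (1.68 to 2.46) in replicate 2. Both hearts thus had more counts on Mir199b than on Mir199a-2, and the intervals did not overlap. This is the shift of the shares above, given as a ratio. The counts hold only reads placed at 1 position, so they do not give the order of the RNA itself. For Mir214 over Mir199a-2, which share Dnm3os, it was 7.34 (7.09 to 7.61) and 8.39 (8.06 to 8.76), or 162-fold and 335-fold, again without overlap. For Mir214 over Mir199b it was 6.57 (6.37 to 6.77) and 6.33 (6.17 to 6.50), which overlap. With Mir199a-1 as the lower gene the intervals were wide, since it had 8 counts and 1: 3.69 to 5.92 and 5.71 to 13.50 for Mir199b over Mir199a-1, and 2.89 to 5.16 and 3.60 to 11.45 for Mir199a-2 over Mir199a-1. The listed arms of Mir214 were found at 1 hairpin and those of the Mir199 genes at 2 or 3. RefSeq lists no 5p arm for Mir199b, and the matching stretch of its hairpin differs from miR-199a-5p by 1 base. Mir199b thus has a 5p stretch unlike those of the other 2 genes, while both listed arms of Mir199a-2 are shared. The part of these differences in the ratios was not tested.

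Unequal counts of neighbouring miRNA genes were common in these libraries. There were 123 pairs of adjacent miRNA genes on the same strand with starts within 10 kb and 100 or more mean counts for the higher gene. Mir214 over Mir199a-2 had a mean log2 ratio of 7.86 (higher over lower gene), and 28 of the 123 pairs (22.8%), itself included, were at least as unequal. In 22 of those 28 the lower gene had 0 counts in a heart, so its ratio depends on the prior count. Among the 96 pairs with both genes counted in both hearts, the median was 3.13 and the Mir214 pair was the 6th most unequal. The 5 pairs ahead of it were Mir20a over Mir19a, Mir92-1 over Mir19b-1, Mir20a over Mir19b-1, Mir18 over Mir19a and Mir669o over Mir466n, named here after their values were seen. The first 4 of these lie in the Mir17 cluster, which is also read from a single host transcript, and their lower gene was Mir19a, whose RefSeq arms occurred at no other hairpin, or Mir19b-1, which has an arm at another hairpin. In 21 pairs, the Mir214 pair among them, the lower gene had an arm at more than 1 hairpin. Their median log2 ratio was 4.74, against 2.55 for the 71 pairs whose lower gene had no such arm. The groups hold different genes, some of them in several pairs, and the part of shared arms in these ratios was not tested. The ratio intervals of the hearts did not overlap for the Mir214 pair. The same was true of 56 of the 96 pairs counted in both hearts (58.3%), the Mir214 pair included, so it is common among such pairs. Over all 123 pairs the share was 45.5%, since with a lower gene at 0 the interval has no upper end.

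**Figure D5:**
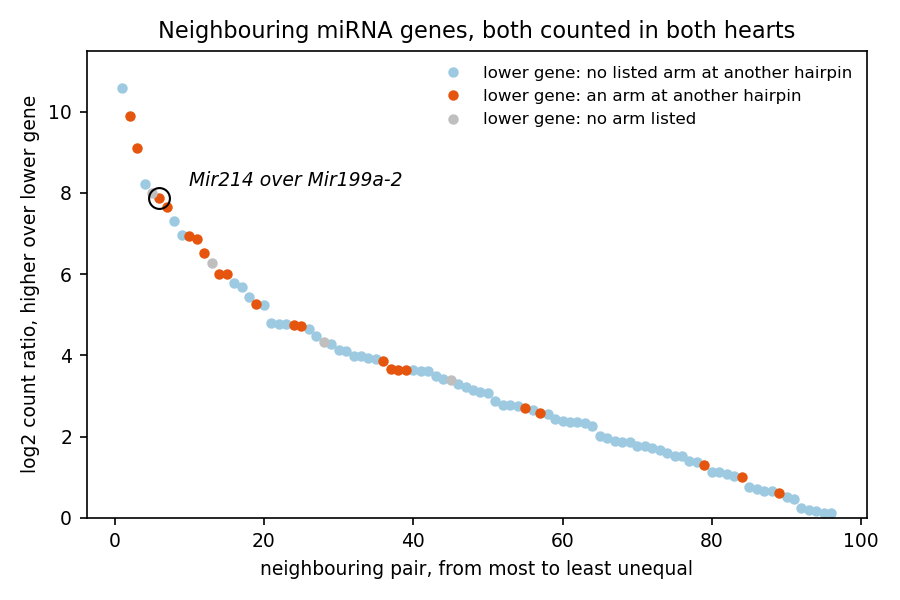
Mean log2 count ratio of the 96 neighbouring pairs counted in both hearts (higher over lower gene, y axis), ordered from most to least unequal, with orange for pairs whose lower gene has a RefSeq arm at another hairpin. The circled pair, Mir214 over Mir199a-2, stands 6th at 7.86.

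The shared arms can be set beside the level of other miRNA genes. RefSeq listed arms for 39 genes of the tables whose every listed arm occurred at more than 1 hairpin, among them all 3 Mir199 genes. For Mir199b only the 3p arm is listed, so its 5p stretch, which differs from miR-199a-5p by 1 base, did not enter this classing. Of these 39, 5 (12.8%) were detected, and Mir199b and Mir199a-2 are 2 of these 5. Of the other 36 genes, 3 (8.33%) were detected, from 20.0 to 988 CPM. Of 925 genes with no shared arm, the class of Mir214, 273 (29.5%) were detected, with a median of 86.2 CPM, and 66 reached 1000 CPM. Of 54 genes with some shared arms, 34 (63.0%) were detected and 3 reached 1000 CPM, up to 5068 CPM. The classes also differ in which genes they hold, and the part of shared reads in these levels was not tested.

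Other miRNA genes of fibroblasts and mesenchyme did not move in a single direction either. Of the 6 in the list, 5 were detected, 3 were higher in replicate 2, 2 were higher in replicate 1 and 1 did not pass the exact binomial test, beside 26.1% higher in replicate 2 and 29.1% higher in replicate 1 among the 375 genes tested. Their median log2 ratio of replicate 2 over replicate 1 was 0.25, against -0.02 over all 375 genes. Their summed CPM, most of it from Mir21a, went the other way, with 16863 in replicate 1 and 6825 in replicate 2. Mir21a, known from activated fibroblasts, had 57416 and 19466 counts, or 8862 ± 6526 CPM, with a log2 ratio of -1.60 (exact 95% interval -1.62 to -1.58). Mir140, known from cartilage, had 12242 and 7554 counts and a ratio of -0.74 (-0.78 to -0.69). Mir29a, which is known to repress collagen genes, had 1960 and 3923 counts and a ratio of 0.96 (0.88 to 1.04). The other members of its family, Mir29c (177 and 264 counts), Mir29b-2 (9 and 31) and Mir29b-1 (43 and 43), were lower in count. Mir29b-1 and Mir29b-2 each have an arm at more than 1 hairpin, and the part of this in their counts was not tested. Mir29c and Mir29b-2 were higher in replicate 2. Mir21a and Mir140 were thus higher in replicate 1, as Mir199a-2 was, while Mir29a, Mir29b-2 and Mir29c were higher in replicate 2, as Mir214 and Mir199b were.

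The levels of markers of other cells are given beside these values. Summed CPM of the 3 erythroid genes was 550 in replicate 1 and 1048 in replicate 2, of the 7 epithelial genes 801 and 427, of the 3 endothelial genes 87599 and 138494, of the smooth muscle genes Mir143 and Mir145a 53735 and 35952, and of the 5 white blood cell genes 3607 and 3720. Nearly all of the endothelial sum was Mir126a, with a log2 ratio of 0.74, while Mir221 (-0.89) and Mir222 (-1.46) were higher in replicate 1, and the list's median was -0.89. Of the smooth muscle pair, Mir143 was higher in replicate 1 (-0.54) and Mir145a did not pass the exact binomial test (-0.02, adjusted p = 0.513). Of the white blood cell genes, 2 were higher in replicate 2 and 3 did not pass, with a median of 0.12. All 3 erythroid genes were higher in replicate 2. Of the epithelial genes, 5 were higher in replicate 1, Mir200b in replicate 2 (0.95), and Mir200a did not pass. Their median was -0.72. The 7 cardiac muscle genes summed to 9699 and 6596 CPM, which, like every sum here, leaves out reads placed at more than 1 position. Of the 6 tested, 4 were higher in replicate 1, 1 in replicate 2, and 1 did not pass (median -0.26). Among all 375 genes tested, 26.1% were higher in replicate 2 and 29.1% in replicate 1. Of the marker genes of this paragraph, 27 in all, 26 had 10 or more counts in both hearts. The exception was Mir133a-2 (6 and 4 counts), so no marker was at 0. Their part in the differences of the members was not tested.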

How the data were processed

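MicroRNA-seq of 2 hearts (1 group) was analysed. The authors aligned each library to mm10 and made from it a table of read counts per miRNA gene of GENCODE M21, per the file headers. The deposited counts are raw, in 3 columns (without strand, gene strand, opposite strand, as read from the values). Aligner and counter were not given in the sources used here. Reads placed at more than 1 position are assigned to no gene. All 2202 IDs were matched to M21. Library sizes leave out the 4 category rows.

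From the gene-strand counts, CPM, shares with exact 95% Clopper-Pearson intervals and log2 ratios with a prior count of 0.5 were computed in Python 3.11.15 with scipy 1.17.1. TMM sizes came from edgeR 4.0.16 in R 4.3.3. The exact binomial test used genes whose counts summed to at least 20. It was also run on simulated counts that held counting error but no spread between hearts. That run cannot show how the test behaves where such spread exists. The alternatives tried were size factors of DESeq2 1.42.0, the unstranded column, all reads or total counts as the scale, other minimums and windows, and leaving out each heart. The labels give separate biosamples. The p-values set the difference between these 2 libraries against counting error and measure no spread between animals.

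A count of 3, the most that a count of 0 allows, equals 0.704 CPM (replicate 1) or 0.655 CPM (replicate 2). Hairpins and arms came from RefSeq (GRCm38.p6). Genes named beside the 4 members were the 3 next above and below each detected member in mean CPM, the detected fibroblast list and overlapping miRNA genes. Outside that rule, marker genes of the lists, Mir29b-2 (not detected), the seed partner Mir761 and neighbouring pairs were named after their values were seen. The members and lists were chosen with earlier results of these data known.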

Additional observations from a re-analysis of the deposited data

How the results depend on the processing

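Of 81 values under alternatives, 22 leave out a heart, which with 2 hearts moves a mean by less than 1 SD and says nothing of stability. Of the other 59, 48 stayed within 1 SD of the hearts (levels, ratios), within 1.5 times (numbers of genes or pairs) or on their side of the test, and 11 moved. No value changed direction or lost a call. Without regard to strand, fewer reads remain on named genes, since reads over genes on both strands are ambiguous: the level was then 6959 CPM for Mir214 and 80.4 CPM for Mir199b, the rank of Mir214 28 and the summed share 0.707%. Over all reads, the levels were 2068 CPM for Mir214, 24.0 for Mir199b and 9.04 for Mir199a-2, and the share 0.210%. Without the most abundant gene in the denominator, Mir214 stood at 5759 CPM. Leaving out a heart put Mir214 at rank 28 to 34. Neighbouring pairs at least as unequal as Mir214 over Mir199a-2 numbered 28 of 123, 22 of them with a lower gene at 0 in a heart, and 15 of 70 where the higher gene had 1000 or more counts; 2 alternatives chosen after seeing the data gave 19 of 123 with lower genes at 0 put at 3 counts and 6 of 96 over pairs counted in both hearts. With no minimum beyond 1 count, Mir199a-1 had a log2 ratio of -2.54 (exact binomial test, adjusted p = 0.0728). The log2 ratios of Mir214, Mir199b and Mir199a-2 kept their calls under all 5 alternatives, the last from -0.89 to -0.79. No paired analysis was possible because only 1 group exists. Depth limits Mir199a-1, whose counts of 8 and 1 leave its ratios to other genes uncertain by several log2 units.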
